A study of Homo sapiens with 6 samples.

Results

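A group of 10 mediators of inflammation is described here across a drug series in melanoma cells: the chemokines CXCL1, CXCL2, CXCL3 and CXCL8, the cytokines IL24, IL6, IL1B and LIF, the soluble pattern recognition protein PTX3 and the receptor TLR4. They are 10 of 19775 genes that had a probe set carrying a single gene symbol. For each gene the brightest such probe set, by its mean across arrays, was used. Tests were limited to genes averaging 5 log2 units or more, which left 7 members among 13506 tested genes. CXCL8 lay just inside that limit with a mean of 5.08, CXCL3 and CXCL2 lay just outside with 4.86 and 4.82, and IL6 had a mean of 3.14.

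The cells were A375, a human melanoma line with an activated BRAF kinase, grown in RPMI1640 with fetal bovine serum and kanamycin. In all of them EIF4B had been disrupted by CRISPR. Its product eIF4B assists the helicase eIF4A, which unwinds mRNA at the start of translation. Stable lentiviral lines then carried LacZ as a negative control (KO/LacZ) or the wild-type eIF4B gene (the rescued line, KO/eIF4B), so both lines share the knockout and a lentiviral insertion, and there was 1 line of each kind. Each line received 10 µM vemurafenib, an inhibitor of mutant BRAF, for 6 h or for 18 h, or DMSO vehicle, and each of the 6 combinations was hybridised to 1 array. No time is labelled for the vehicle arrays, so the drug and time in culture cannot be told apart. Whether each array had its own culture is not labelled either, and the p-values below measure only the spread between these 6 arrays.

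CXCL1, CXCL2, CXCL3 and CXCL8 belong to the ELR group of CXC chemokines, which attract neutrophils through the receptors CXCR1 and CXCR2. Melanoma cells are known to make several of these chemokines themselves, and CXCL1 was first purified as a growth-stimulating activity of melanoma cultures. Their genes are switched on by NF-kB and AP-1 transcription factors, and AP-1 activity depends in part on the ERK pathway downstream of BRAF. IL6, LIF and IL11 signal through the shared subunit IL6ST. IL24 is a cytokine of the IL-10 family found in melanoma cell cultures, PTX3 is a long pentraxin released in inflammation, and TLR4 is the receptor for bacterial lipopolysaccharide.

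Array medians lay between 5.196 and 5.221 log2 units. The brightest EIF4B probe set read 8.40 to 8.53 in KO/LacZ against 10.07 to 10.28 in KO/eIF4B, a mean difference of -1.68, while the differences of the other EIF4B probe sets were 0.19 and 0.17. Of 19 listed genes of ERK output, 18 fell at 6 h and 18 fell at 18 h, against 8.82% and 23.3% of all tested genes. Their median change was -2.56 and -2.80, against 0.03 and 0.01 for all tested genes. This list was written with earlier results of these data known, so it is not an independent check. Melanoma markers were present: 9 of the 11 markers with a probe set had a mean of at least 5. The summed level of the 11 was 11.47 to 11.90 on drug arrays against 11.75 to 11.79 on vehicle arrays. That sum joins opposite changes, with 1 marker higher and 3 lower at 6 h and 2 higher and 2 lower at 18 h. All tested genes had 7.34% higher and 8.82% lower at 6 h, and 28.1% and 23.3% at 18 h. MITF rose by 1.01 and 1.63, while CSPG4 changed by -0.55 and -0.74, MCAM by -0.55 and -0.63, and SOX10 by -0.63 and -0.11. Myeloid markers, of a cell type that makes many of these mediators, had 4 of 9 members at a mean of at least 5. These were LYZ at 6.64, AIF1 at 5.86, FCER1G at 5.26 and ITGAM at 5.12, while PTPRC was at 3.05 and CD14 at 4.34. The 9 summed to 8.11 to 8.54 on drug arrays against 8.41 to 8.58 on vehicle arrays. LYZ changed by -0.86 at 18 h (limma adjusted p = 0.0013), and the part of this change in the results below was not tested. AIF1, FCER1G and ITGAM were not called against vehicle. Fibroblast markers had 4 of 8 members at a mean of at least 5 and summed to 9.38 to 10.42 on drug arrays against 8.95 to 9.24 on vehicle arrays. LUM, by 2.49 log2 units at 18 h, and DCN, by 1.78, carry that sum, whereas COL1A1 differed by 0.02 and THY1 by -0.09, and the part of this shift in the results below was not tested. Fewer expressing cells and less RNA per cell cannot be told apart in bulk RNA of this kind.

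The first question was what vemurafenib did to the mediators in both lines. At 6 h, 6 of the 7 tested members fell, against 8.82% of all tested genes called lower at that time, and 0 rose, against 7.34%. The median change of the tested members was -3.16 log2 units, and that of all tested genes was 0.03. At 18 h, again 6 of 7 fell, against 23.3% of all tested genes called lower, with a median of -3.59 against 0.01, while 0 members rose, against 28.1% of all tested genes. In both comparisons the members that fell were CXCL1, CXCL8, IL24, LIF, PTX3 and TLR4, and IL1B was not called. Calls are from limma with Benjamini-Hochberg adjustment over all tested genes and an adjusted p below 0.05. The 2 comparisons share their vehicle arrays, so the repetition of the calls is not independent. CXCL8 passed the limit on the mean only through its vehicle arrays, so these counts describe the tested members and not all 10. At an unadjusted p below 0.05 the counts of members were the same, 6 lower and 0 higher at each time. When all 19775 genes were fitted with no limit on the mean, 8 of 10 members were called lower at 6 h and 8 of 10 at 18 h, with IL1B and IL6 not called, against 4.22% and 15.5% of all genes.

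**Figure D1:**
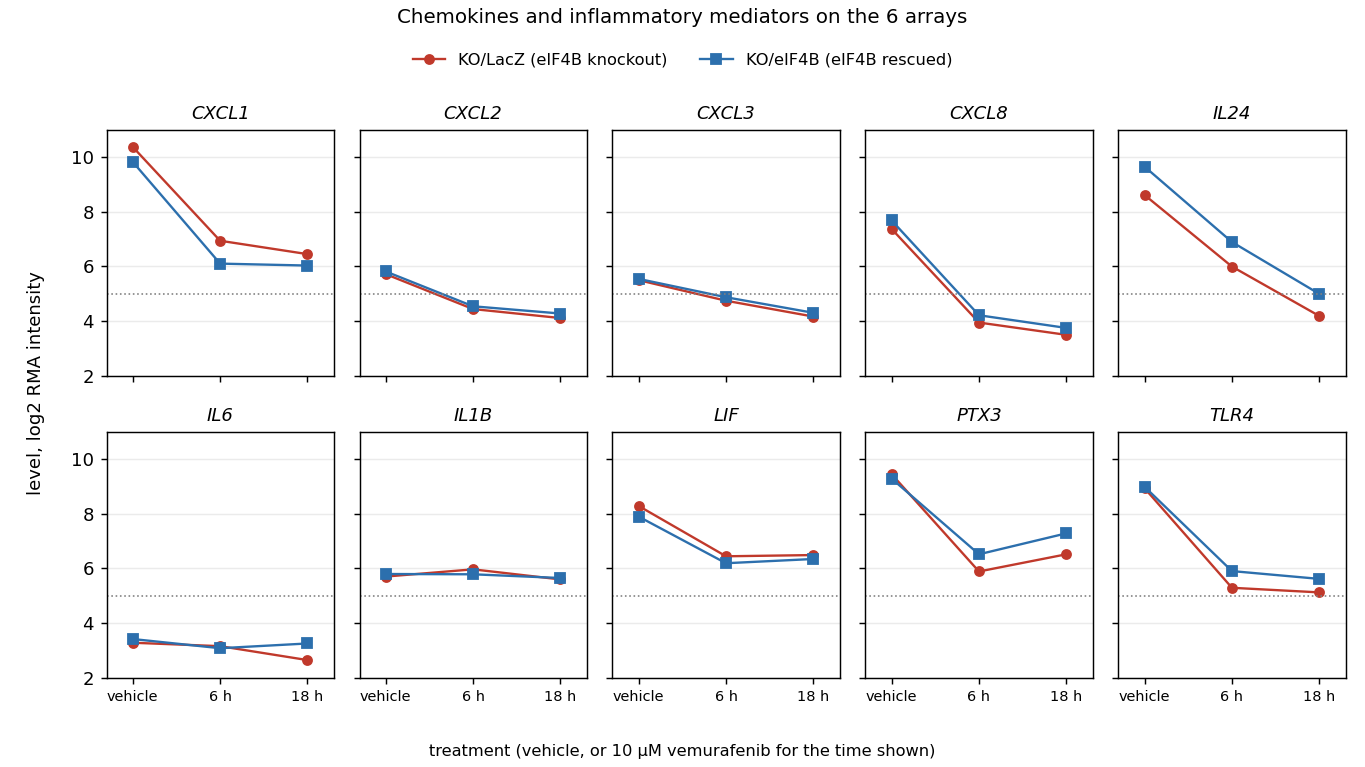
Level of each mediator in log2 RMA intensity (vertical axis) under vehicle and after 6 h and 18 h of 10 µM vemurafenib (horizontal axis). Each point is 1 array, red circles are KO/LacZ, blue squares are KO/eIF4B, and the dotted line marks the limit of 5. The vehicle points of CXCL1, CXCL8, IL24, LIF, PTX3 and TLR4 lie above all of their drug points, while IL1B stays between 5.59 and 5.96.

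The plot of levels by treatment shows 3 shapes. CXCL1, CXCL8 and TLR4 had most of their decrease at 6 h, IL24 continued down to 18 h, and LIF and PTX3 had 18 h levels at or above their 6 h levels in each line. IL1B and IL6 spanned less than 1 log2 unit over the 6 arrays. The following paragraphs give the values by the role of each gene.

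CXCL1 read 10.37, 6.94 and 6.45 log2 units in KO/LacZ (vehicle, then 6 h, then 18 h of vemurafenib), and 9.82, 6.10 and 6.03 in KO/eIF4B. The same order of treatments is kept for the other genes. All drug arrays lay below both vehicle arrays by more than the lines differed. The change at 6 h was -3.57 (SE 0.11, limma adjusted p = 0.000303), an 11.9-fold lower intensity that ranked 7 of 13506 from the lowest change. At 18 h it was -3.85 (limma adjusted p = 0.000114), ranking 11, and the intensity was 6.92% of that under vehicle. The further change between 6 h and 18 h, -0.28, did not pass (limma adjusted p = 0.109), although it did without the KO/eIF4B array at 6 h (-0.46, adjusted p = 0.0405).

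CXCL8, also called interleukin 8, read 7.37, 3.95 and 3.50 in KO/LacZ and 7.68, 4.22 and 3.75 in KO/eIF4B. Its drug arrays were all below the limit of 5 and its vehicle arrays all above it. The lines moved almost alike, by -3.42 in KO/LacZ and -3.47 in KO/eIF4B at 6 h, so the standard error of the mean change of -3.44 was only 0.059 (limma adjusted p = 0.000166, 10.9-fold lower). At 18 h the change was -3.90 (limma adjusted p = 6.77e-05, 14.9-fold lower). Both folds are of the deposited values and may understate the change, since RMA compresses dim levels. The step between 6 h and 18 h was -0.46 (limma adjusted p = 0.0062), between arrays that are all below the limit of 5. That call was lost without the KO/LacZ array at 6 h (adjusted p = 0.0504). The other CXCL8 probe set read 7.91, 3.34 and 3.02 in KO/LacZ and 7.79, 2.97 and 2.78 in KO/eIF4B, with changes of -4.70 at 6 h and -4.95 at 18 h. Its step between 6 h and 18 h, -0.26, was not called among all probe sets (limma adjusted p = 0.123).

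CXCL2 and CXCL3 are close paralogs of CXCL1 with the same receptor use, and both were too dim on average to enter the main test. CXCL2 read 5.72, 4.44 and 4.11 in KO/LacZ and 5.82, 4.54 and 4.28 in KO/eIF4B. CXCL3 read 5.50, 4.75 and 4.17 in KO/LacZ and 5.54, 4.87 and 4.31 in KO/eIF4B. For both genes every drug array lay below every vehicle array, and the 18 h array of each line lay below its 6 h array. In the fit of all genes CXCL2 changed by -1.27 at 6 h and -1.57 at 18 h (limma adjusted p = 0.00142 and 0.000301), and CXCL3 by -0.71 and -1.29 (limma adjusted p = 0.00751 and 0.000458). Between 6 h and 18 h in that fit CXCL3 changed by -0.57 (limma adjusted p = 0.00856) and CXCL2 by -0.30 (adjusted p = 0.0396). The other CXCL2 probe sets read 3.19 to 3.52 and 2.31 to 2.65 on all arrays and were not called in either comparison with vehicle. The CXCL2 probe set used is of a design that can share probes with other sequences, and the part of CXCL1 or CXCL3 mRNA in its signal was not tested.

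The promoters of the CXC chemokines and of IL6 are shown because they are known targets of NF-kB and because their members moved by such different amounts. The stretches are the 150 bases before the annotated start, from RefSeq on GRCh38.p14, 5′ to 3′ on the strand of the gene, with matches to the kappaB motif GGNNTTTCC and the AP-1 motif TGANTCA in capitals. They lie at chr4:73869243-73869392 on the plus strand for CXCL1, chr4:74099196-74099345 on the minus strand for CXCL2, chr4:74038690-74038839 on the minus strand for CXCL3, chr4:73740419-73740568 on the plus strand for CXCL8 and chr7:22727050-22727199 on the plus strand for IL6.
CXCL1: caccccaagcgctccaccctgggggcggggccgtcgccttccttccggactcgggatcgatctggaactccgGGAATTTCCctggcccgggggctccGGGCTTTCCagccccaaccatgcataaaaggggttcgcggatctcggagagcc
CXCL2: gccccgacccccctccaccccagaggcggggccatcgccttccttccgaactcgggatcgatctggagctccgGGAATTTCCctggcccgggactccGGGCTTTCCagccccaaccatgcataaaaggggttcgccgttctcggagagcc
CXCL3: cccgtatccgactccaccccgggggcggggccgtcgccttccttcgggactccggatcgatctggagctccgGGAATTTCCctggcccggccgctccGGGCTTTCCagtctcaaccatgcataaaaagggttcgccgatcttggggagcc
CXCL8: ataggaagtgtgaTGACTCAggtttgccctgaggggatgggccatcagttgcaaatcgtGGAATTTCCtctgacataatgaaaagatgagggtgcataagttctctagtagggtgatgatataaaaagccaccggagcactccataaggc
IL6: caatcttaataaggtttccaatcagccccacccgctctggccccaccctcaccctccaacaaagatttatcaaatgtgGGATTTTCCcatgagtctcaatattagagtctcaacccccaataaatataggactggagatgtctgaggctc
The windows searched ran from 250 bases before the start to 50 after it, on both strands, and 9 of the 10 members had one. The kappaB motif was found in the windows of CXCL1, CXCL2, CXCL3, CXCL8 and IL6, 5 of 9, against 6.26% of all 35116 windows. CXCL1 and CXCL3 each had it 78 and 53 bases before the start, CXCL2 had it 77 and 53 bases before, CXCL8 had it 91 bases before and IL6 had it 72 bases before. The AP-1 motif was found in the CXCL8 window alone, 137 bases before the start, against 7.71% of all windows. The TATA motif TATAAA was likewise found in 1 of 9, that of CXCL8, 31 bases before the start, against 11.5% of all windows, and the motifs did not overlap. The stretches of CXCL1 and CXCL2 had the same base at 88.8% of aligned positions, those of CXCL1 and CXCL3 at 88.1% and those of CXCL2 and CXCL3 at 86.3%. CXCL8 matched CXCL1 at 45.5%. A match describes these letters only and is not evidence of binding. The 3 paralogs with nearly the same stretch had changes at 6 h of -3.57 for CXCL1, -1.27 for CXCL2 and -0.71 for CXCL3, on probe sets of unequal brightness. RMA may understate the changes of dim ones, and its part in these differences was not tested.

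**Figure D2:**
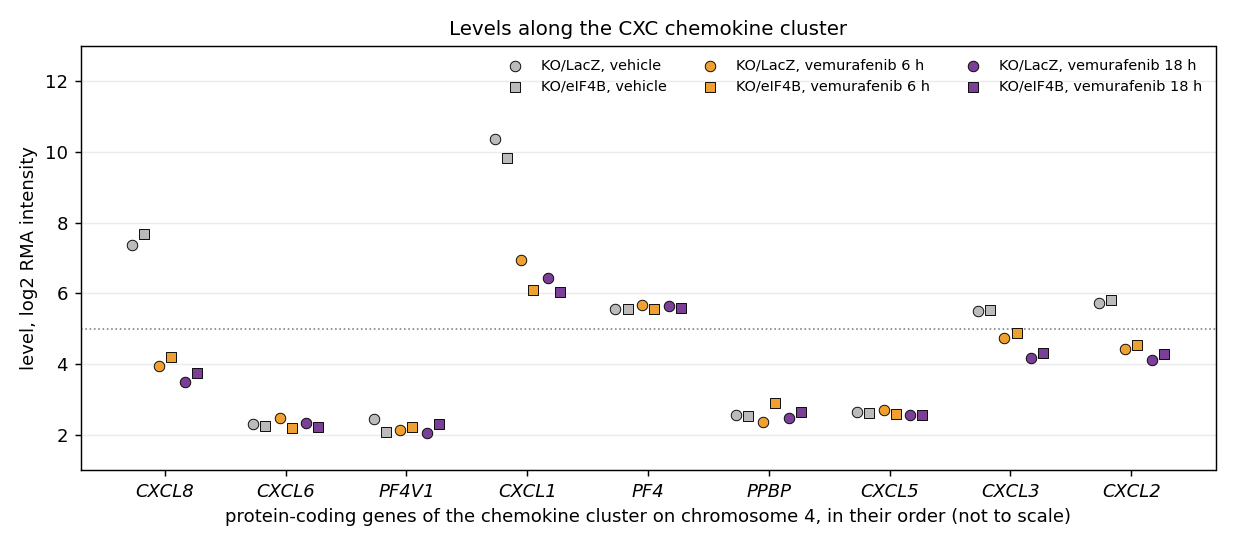
Level in log2 RMA intensity (vertical axis) of the protein-coding chemokine genes of the cluster on chromosome 4, in their order and not to scale (horizontal axis). Circles are KO/LacZ, squares are KO/eIF4B, grey is vehicle, orange 6 h and purple 18 h of vemurafenib, each point is 1 array, and the dotted line marks the limit of 5. CXCL8, CXCL1, CXCL3 and CXCL2 have their grey points highest, and the genes between them do not separate the treatments.

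These 4 chemokine genes lie in 1 cluster on chromosome 4, in the order CXCL8, CXCL6, PF4V1, CXCL1, PF4, PPBP, CXCL5, CXCL3 and CXCL2 in RefSeq. The neighbours encode related chemokines, of which PF4 and PPBP are best known from platelets. PF4 read 5.56 to 5.67 over the 6 arrays. CXCL6 read 2.20 to 2.49, PF4V1 2.05 to 2.45, PPBP 2.37 to 2.90 and CXCL5 2.56 to 2.72, all far below the limit of 5. The plot along the cluster shows the changes at CXCL8, CXCL1, CXCL3 and CXCL2 with no shift of like size at the genes between. For these 4 dim neighbours a fall may not have been detectable.

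Other chemokines were read from a list. Of 37 other chemokines, 32 had a probe set and 9 were tested. At 6 h 1 rose and 0 fell, and at 18 h 1 rose and 1 fell, with median changes of 0.05 and 0.06 (at an unadjusted p below 0.05, 2 higher and 0 lower at 6 h). Of all tested genes 7.34% rose and 8.82% fell at 6 h, and 28.1% rose and 23.3% fell at 18 h. The limit on the mean removes genes that end dim, so the list was also read in the fit of all genes, where 0 of 32 rose and 2 fell at 6 h, against 2.85% and 4.22% of all genes, and 2 rose and 5 fell at 18 h, against 18.7% and 15.5%. Those that fell at 6 h were CCL20 and CCL2, which attract immature dendritic cells and monocytes and are named after their values were seen. CCL20 read 5.25, 3.82 and 3.36 in KO/LacZ and 5.21, 3.52 and 3.50 in KO/eIF4B, changing by -1.56 at 6 h and -1.80 at 18 h (limma adjusted p = 0.00331 and 0.000625). CCL2 read 4.18, 3.27 and 2.53 in KO/LacZ and 4.6, 3.17 and 3.24 in KO/eIF4B, changing by -1.17 and -1.51 (limma adjusted p = 0.0299 and 0.00335). Among the tested chemokines the called changes were smaller in size. CXCL9, which attracts T cells through CXCR3, read 4.99, 5.42 and 4.73 in KO/LacZ and 5.09, 5.32 and 4.86 in KO/eIF4B, changing by 0.33 at 6 h (limma adjusted p = 0.0486) and by -0.24 at 18 h (adjusted p = 0.0487). Its mean of 5.07 lay just inside the limit, with its 6 h arrays highest, and neither change was called in the fit of all genes. CXCL16, a transmembrane chemokine, rose by 0.29 at 18 h (limma adjusted p = 0.0163). XCL1, also called lymphotactin, was 0.31 higher at 18 h than at 6 h (limma adjusted p = 0.0492), a call not kept in the fit of all genes.

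IL24 had the largest change at 18 h among the probe sets used. It read 8.61, 6.00 and 4.19 in KO/LacZ and 9.65, 6.89 and 5.00 in KO/eIF4B, so each line fell at each step. The change at 6 h was -2.68 (SE 0.077, limma adjusted p = 0.000263, 6.43-fold lower) and at 18 h -4.54 (limma adjusted p = 6.77e-05, 23.2-fold lower), which ranked 5 of 13506 from the lowest. At 6 h 15.6% of the vehicle intensity was left, and at 18 h 4.31%. The 18 h arrays lay below or at the limit of 5, where the deposited values may understate the change. The step between 6 h and 18 h was -1.85 (SE 0.077, limma adjusted p = 0.00179). Of the 6 genes of the IL-10 family list 3 were tested, and in each comparison IL24 was the only tested member called. Of all tested genes 8.82% were lower at 6 h, 23.3% at 18 h, 14.9% between 6 h and 18 h and 1.06% between the lines. In the fit of all genes 2 of 6 were lower at 18 h, against 15.5% of all genes. IL10, named after its values were seen and dim on all arrays, changed there by -0.56 (limma adjusted p = 0.012).

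Between 6 h and 18 h, IL24 and CXCL8 were the 2 of 7 tested members that fell, against 14.9% of all tested genes called lower, and 0 members rose, against 19% (at an unadjusted p below 0.05, 3 lower and 1 higher). CXCL8 entered this comparison through its vehicle arrays alone, and its other probe set was not called. In the fit of all genes 4 of 10 were lower, the others being CXCL2 and CXCL3, against 7.88% of all genes.

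LIF, a cytokine of the IL-6 family that keeps mouse embryonic stem cells undifferentiated, read 8.28, 6.44 and 6.49 in KO/LacZ and 7.89, 6.19 and 6.34 in KO/eIF4B. All drug arrays lay below both vehicle arrays, and the 6 h and 18 h arrays overlapped. The change was -1.77 at 6 h (SE 0.079, limma adjusted p = 0.00065, 3.41-fold lower) and -1.67 at 18 h (limma adjusted p = 0.000246, 3.19-fold lower). The difference between 18 h and 6 h was 0.10 with a 95% confidence interval of -0.10 to 0.30 (limma adjusted p = 0.372).

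IL6, the best known cytokine of that family, was dim on every array. It read 3.28, 3.16 and 2.65 in KO/LacZ and 3.42, 3.08 and 3.25 in KO/eIF4B. The vehicle arrays lay just above all drug arrays, and the 6 h and 18 h arrays overlapped. In the fit of all genes its changes were -0.23 at 6 h and -0.40 at 18 h (limma adjusted p = 0.474 and 0.129), neither of which passed, on a probe set this dim.

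IL1B, the secreted product of the inflammasome, read 5.70, 5.96 and 5.59 in KO/LacZ and 5.79, 5.78 and 5.65 in KO/eIF4B. The vehicle and 6 h arrays overlapped, and both 18 h arrays lay just below all others. Its change at 6 h was 0.13 (95% confidence interval -0.09 to 0.35, limma adjusted p = 0.372), and at 18 h -0.13 (-0.35 to 0.10, adjusted p = 0.282), so changes of the size seen in CXCL1 or IL24 lay outside both intervals, on a probe set that may be compressed. Its 18 h level was -0.25 relative to 6 h (limma adjusted p = 0.0789), which passed without the KO/eIF4B array at 6 h (-0.38, adjusted p = 0.0492) and with arrays centred on their medians (-0.35, adjusted p = 0.0406), and in none of the other alternatives run. The other IL1B probe set stayed between 4.84 and 4.94. In the list of the IL-1 family and its processing caspase, 5 of 12 genes were tested and 0 were called in any of the 4 comparisons, with 1 below an unadjusted p of 0.05, between 6 h and 18 h. All tested genes had 7.34% higher and 8.82% lower at 6 h, and 28.1% and 23.3% at 18 h. The shares were 19% and 14.9% between 6 h and 18 h, and 1.44% and 1.06% between the lines. With 5 genes the counts are not set apart from those shares. In the fit of all genes 1 of 12 fell at 6 h and 1 at 18 h, against 4.22% and 15.5% of all genes. It was IL1A, the relative of IL1B that shares its receptor, named after its values were seen, which was too dim on average for the main test. IL1A read 4.52, 3.82 and 3.75 in KO/LacZ and 5.55, 3.93 and 3.98 in KO/eIF4B, changing by -1.16 at 6 h and -1.17 at 18 h (limma adjusted p = 0.0461 and 0.0133). IL18, of the same list, was higher in KO/LacZ by 1.22 in that fit (limma adjusted p = 0.0492).

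PTX3 fell steeply and then stood higher at 18 h than at 6 h in each line. It read 9.44, 5.89 and 6.51 in KO/LacZ and 9.28, 6.51 and 7.28 in KO/eIF4B. The change was -3.16 at 6 h (SE 0.23, limma adjusted p = 0.00222, 8.94-fold lower) and -2.46 at 18 h (limma adjusted p = 0.000947, 5.52-fold lower). From 6 h to 18 h the difference was 0.63 in KO/LacZ and 0.77 in KO/eIF4B. Their mean of 0.70 (SE 0.23, 95% confidence interval 0.12 to 1.27) did not pass the adjustment (limma adjusted p = 0.0677), and it passed without either vehicle array (adjusted p = 0.00693). Of 7 listed pentraxin genes, 4 were tested. Apart from PTX3, the neuronal pentraxin NPTX2 changed by -0.44 at 6 h and -1.56 at 18 h (limma adjusted p = 0.035 and 0.000355), and between 6 h and 18 h by -1.12 (limma adjusted p = 0.00277). NPTX2 read 5.83, 5.52 and 4.42 in KO/LacZ and 5.60, 5.04 and 3.89 in KO/eIF4B. Its mean of 5.05 passed the limit only through its vehicle and 6 h arrays. In the fit of all genes its 6 h change was not called.

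TLR4 read 8.93, 5.29 and 5.12 in KO/LacZ and 8.98, 5.90 and 5.61 in KO/eIF4B. The vehicle arrays were nearly equal, and every drug array lay more than 3 log2 units below its own line's vehicle array. The change was -3.36 at 6 h (SE 0.14, limma adjusted p = 0.000575, 10.3-fold lower) and -3.59 at 18 h (limma adjusted p = 0.000181, 8.32% of the vehicle intensity left), with -0.23 between the drug times (adjusted p = 0.266). All 4 TLR4 probe sets were lower, with changes of -3.73 to -2.27 at 6 h and -4.08 to -2.49 at 18 h.

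**Figure D3:**
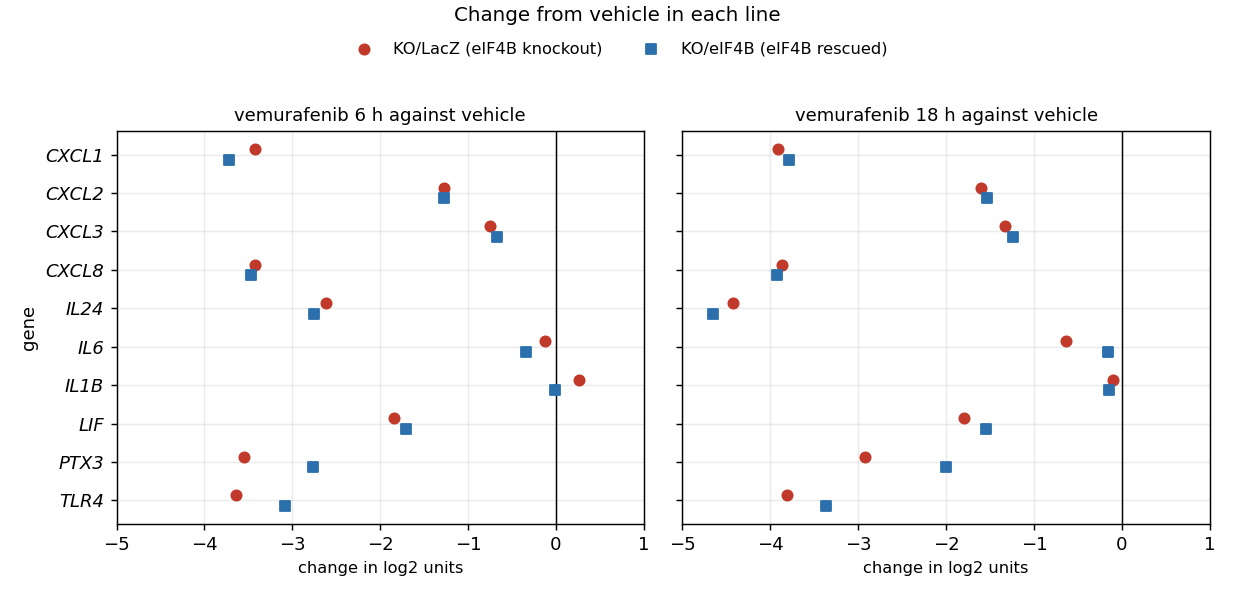
Change from vehicle in log2 units (horizontal axis) for each mediator (vertical axis), after 6 h (left) and 18 h (right) of vemurafenib. Red circles are KO/LacZ, blue squares are KO/eIF4B, and each point is the difference of 2 arrays. The paired points lie close together for CXCL2 and CXCL8 and farther apart for PTX3 and TLR4, where KO/LacZ is further below 0.

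The second question was whether the knockout line differed from the rescued line under all treatments. Among the 7 tested members 1 was higher in KO/LacZ, against 1.44% of all tested genes, and 1 was lower, against 1.06%. CXCL1 was higher in KO/LacZ in all 3 pairs of arrays, by 0.55 under vehicle, 0.84 at 6 h and 0.42 at 18 h, a mean of 0.60 (SE 0.09, limma adjusted p = 0.0474). IL24 was lower in KO/LacZ in all 3 pairs, by -1.04, -0.90 and -0.81, a mean of -0.91 (SE 0.063, limma adjusted p = 0.0276) that ranked 22 of 13506 from the lowest. Neither call held in all fits. CXCL1 was not called when any single array was left out (0.48 to 0.69, adjusted p = 0.1 to 0.134) nor when all genes were fitted (adjusted p = 0.0808). IL24 lost its call without any 1 of the 4 vemurafenib arrays (adjusted p = 0.0856 to 0.106) and kept it without either vehicle array. With all genes fitted IL24 was the only 1 of 10 members called, lower in KO/LacZ, against 0.126% of all genes.

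The remaining members did not pass. At an unadjusted p below 0.05, 2 of the 7 tested members were higher and 3 lower in KO/LacZ. TLR4 differed by a mean of -0.39 (95% confidence interval -0.68 to -0.09, limma adjusted p = 0.143). PTX3 differed by a mean of -0.41 (-0.88 to 0.06, limma adjusted p = 0.264). CXCL8 was -0.31, -0.27 and -0.25 in KO/LacZ relative to KO/eIF4B under vehicle, 6 h and 18 h (mean -0.28, limma adjusted p = 0.0612). Its other probe set differed the opposite way, by 0.12, 0.37 and 0.23, so the direction for CXCL8 rests on the probe set. LIF differed by 0.39, 0.25 and 0.14 (mean 0.26, limma adjusted p = 0.106), and IL1B by a mean of 0.01 with a 95% confidence interval of -0.17 to 0.19. CXCL2, CXCL3 and IL6 differed by -0.12, -0.10 and -0.22 in the fit of all genes, with limma adjusted p-values of 0.363, 0.43 and 0.465.

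**Figure D4:**
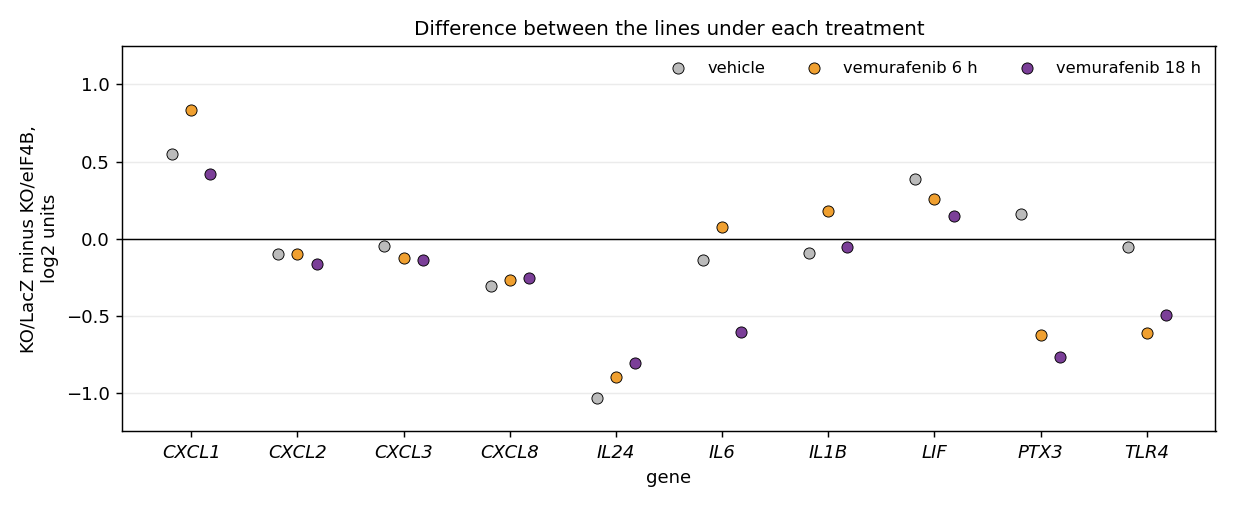
Difference between the lines, KO/LacZ minus KO/eIF4B, in log2 units (vertical axis) for each mediator (horizontal axis). Grey is vehicle, orange 6 h and purple 18 h of vemurafenib, and each point is the difference of 2 arrays. CXCL1 and LIF lie above 0 under all treatments, IL24 and CXCL8 below, and PTX3 is at -0.77 at 18 h, against 0.16 under vehicle.

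The third question was whether the lines answered the drug differently. A line-by-drug term common to both drug times called 0 of 13506 genes in limma, and 302 genes (2.24%) had an unadjusted p below 0.05. PTX3 and TLR4 were among the 302, the only ones of the 7 tested members. The PTX3 change in KO/LacZ minus that in KO/eIF4B was -0.79 at 6 h and -0.93 at 18 h, and the common term was -0.86 (SE 0.15, 95% confidence interval -1.23 to -0.48, unadjusted p = 0.00175 from limma, adjusted p = 1). At 6 h 8.51% of the vehicle intensity of PTX3 was left in KO/LacZ, against 14.7% in KO/eIF4B, and at 18 h 13.2% against 24.98%. For TLR4 the common term was -0.50 (95% confidence interval -0.87 to -0.13, unadjusted p = 0.0175 from limma, adjusted p = 1), from -0.56 at 6 h and -0.44 at 18 h. The other 3 TLR4 probe sets had values of -0.45 to -0.40 at 6 h and -0.67 to -0.50 at 18 h, which are not independent of the first since they read the same RNA. The term was 0.08 for CXCL1 (-0.45 to 0.61), 0.05 for CXCL8 (-0.30 to 0.41), 0.18 for IL24 (-0.18 to 0.55), -0.19 for LIF (-0.56 to 0.18) and 0.16 for IL1B (-0.26 to 0.57). These 95% intervals all include 0 and leave room for differences of up to 0.61.

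Receptors of the members were read next. Of 12 receptor genes, 6 were tested, with 0 higher and 2 lower at 6 h and 1 higher and 1 lower at 18 h, and median changes of -0.17 and 0.03. The counts at an unadjusted p below 0.05 were the same. Of all tested genes 7.34% were higher and 8.82% lower at 6 h, and 28.1% and 23.3% at 18 h. The 18 h counts of the receptors are not set apart from those shares. IL1RAP, the shared accessory chain of IL-1 receptors, read 8.43, 7.01 and 6.86 in KO/LacZ and 8.66, 7.31 and 6.91 in KO/eIF4B. It changed by -1.38 at 6 h and -1.67 at 18 h (limma adjusted p = 0.00113 and 0.000258), with a further -0.28 between 6 h and 18 h (adjusted p = 0.0496). That further step was not called in the fit of all genes. IL6R, the chain that binds IL6, read 6.26, 6.02 and 7.55 in KO/LacZ and 6.58, 6.46 and 7.22 in KO/eIF4B, so its 18 h arrays lay above all others, with a rise of 0.97 over vehicle (limma adjusted p = 0.00981) and of 1.15 over 6 h (adjusted p = 0.0109). LIFR, the receptor of LIF, read 7.39, 7.0 and 7.44 in KO/LacZ and 6.96, 6.53 and 6.82 in KO/eIF4B. It fell by 0.41 at 6 h (limma adjusted p = 0.0243), stood at -0.04 at 18 h and was higher in KO/LacZ by 0.51 (adjusted p = 0.0342). That difference between the lines was not called in the fit of all genes. IL6ST, the signalling subunit shared by IL6, LIF and IL11, stayed between 10.77 and 10.96. CXCR1, a receptor of CXCL8, differed from vehicle by 0.13 at 6 h and -0.06 at 18 h and IL22RA1, a chain of an IL24 receptor, by -0.16 and 0.12, none of which passed. CXCR2, the main receptor of CXCL1, was dim with a mean of 2.91, and IL1R1, IL1R2, IL20RA, IL20RB and ACKR1 also had means below 5.

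**Figure D5:**
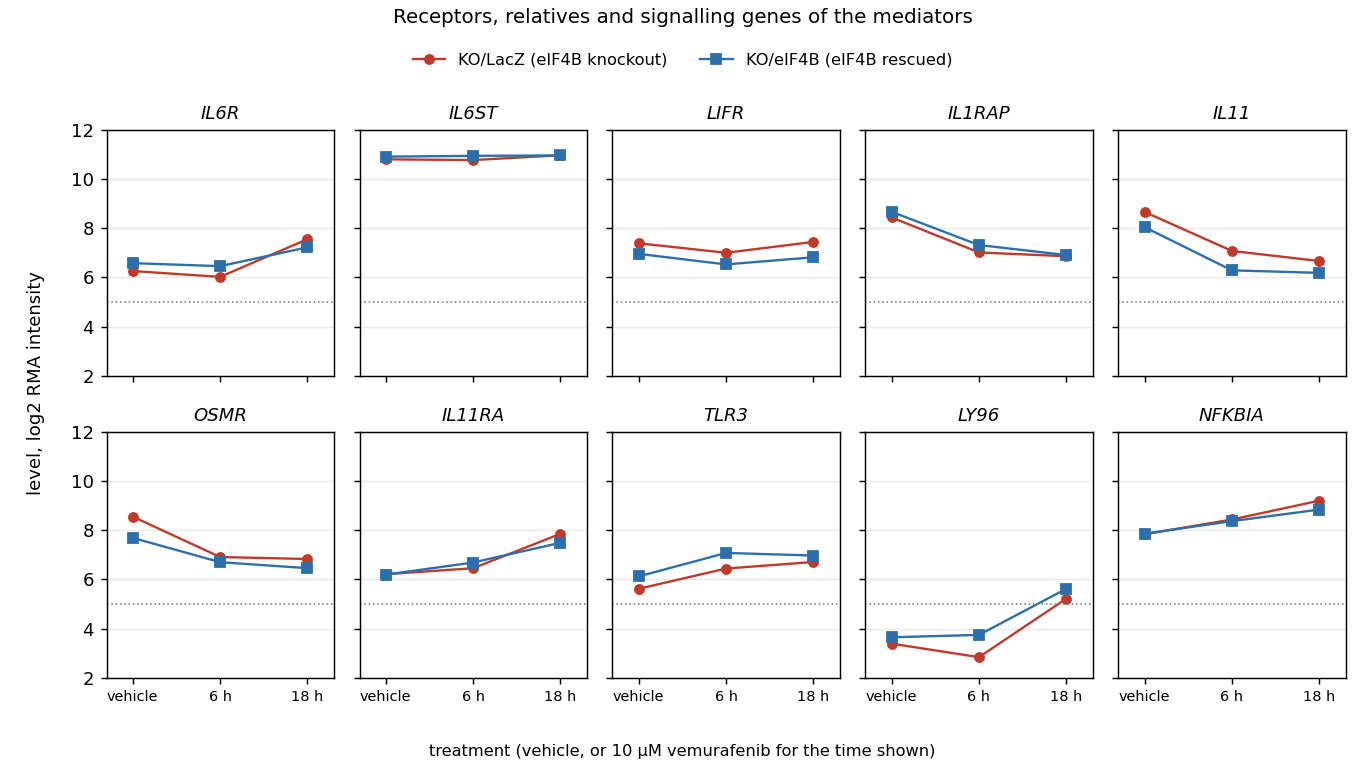
Level in log2 RMA intensity (vertical axis) under vehicle and after 6 h and 18 h of vemurafenib (horizontal axis) of receptors, relatives and signalling genes of the mediators. Each point is 1 array, red circles are KO/LacZ, blue squares are KO/eIF4B, and the dotted line marks the limit of 5. IL1RAP, IL11 and OSMR lie lower on all drug arrays, IL6R, IL11RA and LY96 are highest at 18 h, and IL6ST is level.

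Among the genes of the IL-6 family and its signalling, 18 of 22 were tested, with 0 higher and 4 lower at 6 h and 6 higher and 3 lower at 18 h, LIF included, and median changes of -0.01 and 0.03. At an unadjusted p below 0.05, 2 were higher and 4 lower at 6 h and 8 higher and 4 lower at 18 h. All tested genes had 7.34% higher and 8.82% lower at 6 h and 28.1% and 23.3% at 18 h, near the 18 h counts of the list. IL11, a relative of LIF, read 8.66, 7.07 and 6.66 in KO/LacZ and 8.04, 6.29 and 6.18 in KO/eIF4B. It changed by -1.67 at 6 h and -1.93 at 18 h (limma adjusted p = 0.000923 and 0.000234), and it was higher in KO/LacZ by 0.63 (adjusted p = 0.0339). OSMR, the receptor chain of oncostatin M, changed by -1.31 and -1.48 (limma adjusted p = 0.00937 and 0.00146). The plot of receptors and relatives shows that IL11RA, the receptor of IL11, was highest at 18 h, 1.10 above 6 h (limma adjusted p = 0.00625). EBI3, a subunit of heterodimeric cytokines of the IL-12 family, read 5.79, 5.88 and 6.55 in KO/LacZ and 4.82, 5.03 and 5.64 in KO/eIF4B, higher in KO/LacZ by 0.91 (limma adjusted p = 0.0202). Between the lines 3 of the 18 tested genes of this list were higher in KO/LacZ, against 1.44% of all tested genes. In the fit of all genes 1 of 20 was, against 0.167%, so at most 1 of those 3 calls held there.

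Toll-like receptors and their adaptors came next. Of 27 genes, 16 were tested, with 1 higher and 3 lower at 6 h and 4 higher and 4 lower at 18 h, and median changes of 0.01 at both times. At 18 h both counts are near the 28.1% higher and 23.3% lower of all tested genes. The shares of all tested genes at 6 h were 7.34% higher and 8.82% lower. TLR3, the endosomal receptor of double-stranded RNA, read 5.61, 6.44 and 6.70 in KO/LacZ and 6.12, 7.07 and 6.97 in KO/eIF4B and rose by 0.89 at 6 h and 0.97 at 18 h (limma adjusted p = 0.0078 and 0.0013), while TLR4 fell. IRAK2, a kinase of the TLR pathway, fell by 0.61 at 6 h (limma adjusted p = 0.0322), and TICAM1, the adaptor of TLR3 and TLR4, fell by 0.67 at 18 h (adjusted p = 0.00148). Between 6 h and 18 h the kinase IRAK1 differed by -0.31 and the adaptor MYD88 by 0.25 (limma adjusted p = 0.0159 and 0.0367). LY96, the MD-2 protein that TLR4 needs to bind lipopolysaccharide, was chosen for mention after its values were seen. It was too dim on average to be tested and read 3.39, 2.84 and 5.22 in KO/LacZ and 3.65, 3.74 and 5.62 in KO/eIF4B. Both of its 18 h arrays were higher than all others, and in the fit of all genes it was 1.90 above vehicle at 18 h (limma adjusted p = 0.00114).

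Genes of the NF-kB system itself moved in both directions. Of 17 tested subunits, kinases and feedback genes from a list of 19, 2 rose and 3 fell at 6 h and 3 rose and 7 fell at 18 h, with median changes of -0.14 and -0.15. Of all tested genes 7.34% rose and 8.82% fell at 6 h, and 28.1% and 23.3% at 18 h. NFKBIA, the inhibitor IkB alpha, read 7.83, 8.43 and 9.19 in KO/LacZ and 7.85, 8.36 and 8.83 in KO/eIF4B. It rose by 0.55 at 6 h and by 1.17 at 18 h (limma adjusted p = 0.0285 and 0.000901). The part of NF-kB in the changes of the members was not tested. REL, a subunit, rose by 0.42 at 6 h (limma adjusted p = 0.0198), and TNFAIP3, the feedback enzyme A20, fell by 0.88 at 18 h (adjusted p = 0.00568). NFKBIB, another inhibitor, differed by -0.33 between 6 h and 18 h (limma adjusted p = 0.0167).

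Several members carry AU-rich elements in their mRNA, which recruit decay factors, so genes of that system were read as well. Of 13 factors 12 were tested, with 0 higher and 3 lower at 6 h and 3 higher and 6 lower at 18 h, and median changes of -0.12 and -0.18. Of all tested genes 7.34% were higher and 8.82% lower at 6 h, and 28.1% and 23.3% at 18 h. The count of 3 higher at 18 h is near that share. At an unadjusted p below 0.05, 1 was higher and 6 lower at 6 h. ZFP36L2, a protein that binds AU-rich elements and promotes decay, read 11.01, 9.62 and 9.24 in KO/LacZ and 10.87, 9.40 and 9.36 in KO/eIF4B. It changed by -1.43 at 6 h and -1.64 at 18 h (limma adjusted p = 0.00195 and 0.00036). ZC3H12C, of the regnase family of ribonucleases, fell by 0.76 at 6 h (limma adjusted p = 0.00805). ZFP36L1, a relative of ZFP36L2, rose by 0.85 at 18 h (limma adjusted p = 0.00448) and was 0.55 higher at 18 h than at 6 h (adjusted p = 0.0301), and ZFP36, known as tristetraprolin, was 0.51 higher at 18 h than at 6 h (adjusted p = 0.0203).

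A list of other cytokines was read for comparison. Of 38 genes 16 were tested, with 1 higher and 1 lower at 6 h and 4 higher and 2 lower at 18 h, and median changes of 0.00 and 0.02. The counts are not set apart from all tested genes, with 7.34% higher and 8.82% lower at 6 h and 28.1% and 23.3% at 18 h. KITLG, the ligand of the KIT receptor of pigment cells, rose by 1.21 at 6 h and by 2.57 at 18 h (limma adjusted p = 0.00992 and 0.000356). The adhesion molecule ICAM1 fell by 0.66 at 6 h (limma adjusted p = 0.016), and TGFB1 rose by 0.77 at 18 h (adjusted p = 0.00108).

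Likeness between profiles was measured as the root-mean-square difference of log2 levels over the 6 arrays, each gene centred on its own mean, and it is a description with no test. Among tested members CXCL8 and TLR4 were closest, at 0.19, and IL24 and IL1B were farthest apart, at 1.88. Among all tested genes, the nearest to CXCL1 were IER3 (0.30) and SPRY2 (0.35), and the nearest to CXCL8 were ETV5 (0.17) and TLR4 itself. TLR4 had CXCL8 and MAFF (0.23), IL24 had LINC00326 (0.55) and FOSL1 (0.56), and PTX3 had MANSC1 (0.33) and EPHA2 (0.35). LIF had UBE2QL1 (0.13) and PHC2 (0.14). IL1B had EDAR and VSIG2, both at 0.02, which moved as little as IL1B did. IER3, SPRY2, ETV5 and FOSL1 are known early targets of ERK signalling. DUSP6, the ERK phosphatase, changed by -5.19 at 6 h and -5.31 at 18 h (limma adjusted p = 0.000166 and 8.12e-05), more than any member. Between 6 h and 18 h CXCL1 differed by -0.28 and TLR4 by -0.23, neither called, and CXCL8 by -0.46 (limma adjusted p = 0.0062). The ERK output list had a median of -0.12 there, with 6 of 19 lower, against 14.9% of all tested genes, and 0 higher, against 19%. The largest called changes of that list were -2.76 for ETV4, an ETS factor, and -1.29 for MYC (limma adjusted p = 0.00178 and 0.00616). DUSP6 differed by -0.12 and IER3 by -0.11, neither called. Of the ERK output list 2 of 19 were lower in KO/LacZ, CCND1 by -0.47 and FOSL1 by -0.39 (limma adjusted p = 0.0342 and 0.0494), and 0 were higher (4 and 1 at an unadjusted p below 0.05). Among all tested genes 1.06% were lower and 1.44% higher. Neither call was kept in the fit of all genes, where 0 of the 19 were called between the lines.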

How the data were processed

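The authors deposited 1 table of linear intensity values for 6 arrays and 54675 probe sets; RMA and affy are named per the submitters' processing notes, with their versions not given in the sources used here. This method subtracts background, gives all arrays the same distribution by quantile normalization and compresses changes of dim and very bright probe sets. The deposited intensities ran from 3.01 to 19000, and log2 was taken. Of the probe sets, 41091 carried 1 gene symbol in the platform annotation, 1801 several and 11721 were unnamed here, and 62 array controls stayed out; 41037 matched RefSeq by gene identifier. Lines and treatments were taken from the labels, and the number of arrays limits the precision.

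An additive model of line and treatment was fitted over all 6 arrays in limma 3.58.1 (lmFit with eBayes, R 4.3.3), which had 2 degrees of freedom from residuals and 3.19 added by its prior, with Benjamini-Hochberg adjustment over 13506 genes at 0.05. Its error is the disagreement between the lines, or between treatments for the line comparison. The term for a difference between the lines in response leaves 1 residual degree of freedom. The procedure was tested on simulated data. Members, lists and motifs were chosen with earlier results of these data known. Named were all members, all tested receptors, EIF4B, the 2 nearest profiles per member, and at most 2 called genes per list and comparison. Markers, cluster neighbours and untested receptors are given by their lists. CCL20, CCL2, IL1A, IL18, IL10 and LY96 were chosen after their values were seen. Alternatives were the limit on the mean, the choice of probe set, an offset of 16 before log2, an intensity trend, centring, a test against 0.5 log2 units and leaving out each array.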

Additional observations from a re-analysis of the deposited data

Results flagged for a closer look

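The IL1B change at 6 h had opposite signs in the lines, 0.26 in KO/LacZ and -0.01 in KO/eIF4B, a difference of 0.275 log2 units, and the same value separates the difference between the lines at 6 h (0.18) from that under vehicle (-0.09). These differences at a single time rest on 1 array per combination and were not tested.

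PTX3 was lower in KO/LacZ than in KO/eIF4B on both drug pairs and slightly higher under vehicle. The difference between the lines at 6 h minus that under vehicle was -0.789, and at 18 h minus vehicle it was -0.926, neither of which was tested by itself. The term shared by both times had an unadjusted p of 0.00175 in limma and an adjusted p of 1.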

How the results depend on the processing

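The 6 falls at 6 h and the 6 at 18 h held in the fits that left out each array in turn. Over all genes, the calls at 6 h numbered 2182, against 1398 with no limit on the mean, 227 in a test against 0.5 log2 units and 594 to 2530 without single arrays, with under 1398 when either vehicle or either 6 h array was out. At 18 h they numbered 6947, against 1558 in the test against 0.5 and 4310 to 6563 without single arrays, lowest without the vehicle arrays. Between 6 h and 18 h they numbered 4587, against 240 and 1435 to 4252, lowest without the KO/LacZ 6 h array. There the members called lower numbered 2, against 4 with no limit and 1 with a limit of 6, the mean of all probe sets, an offset of 16 or the test against 0.5, and 1 to 4 without single arrays. Members called higher there numbered 0, against 1 with an intensity trend (PTX3, adjusted p = 0.0265 in limma) and 0 to 1 without single arrays.

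Between the lines 337 genes were called, against 58 with no limit, 513 with a limit of 6, 541 with the offset, 1169 with the trend, 1 in the test against 0.5 and 0 to 50 without single arrays. Members called higher in KO/LacZ numbered 1, against 0 with no limit, 0 in the test against 0.5 and 0 without each array. Members called lower numbered 1, against 2 with arrays centred on their medians (CXCL8 as well, adjusted p = 0.0475 in limma), 0 in the test against 0.5 and 0 to 1 without single arrays. The shared term called 0 genes, against 11 with the trend and 3 with centred arrays, where PTX3 had adjusted p-values of 0.207 and 0.372 in limma. The cause was not tested in any of these. The fits without single arrays and the stricter limits use fewer arrays or genes by construction.

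Values that turned in sign were near 0 and not called: IL1B at 6 h (-0.000512 to 0.254 without single arrays), LIF between 6 h and 18 h (-0.000447 centred), IL1B between the lines (-0.0252 centred, -0.0732 to 0.0644 without single arrays) and the shared term of CXCL1 (-0.0125 with the offset). Of the other member values, 397 kept direction and call, 16 lost the call and 7 gained it. A limit of 6 removed CXCL8 and IL1B, and the mean of all probe sets removed CXCL8. No paired analysis was possible because the labels give no replicate numbers beyond the line, which the model holds as a term.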
